A study of Homo sapiens with 4 samples.

Results

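SPATA18, AEN, RRM2B and TP53INP1 are 4 genes that the tumour suppressor p53 is known to induce and that carry out parts of its response. They were picked by name with their change after origamicin already known, so their own changes are given as a description and without a test. They are 4 of the 14884 genes with a named probe set in the series. Each has 1 named probe set, and all 4 passed the filter on dim genes, which left 11883 genes. The cells were SH-SY5Y, a single human neuroblastoma line. Total RNA was read on 4 Affymetrix Human Gene 2.0 ST arrays. In 2 cultures the cells had received 30 µM origamicin for 24 h, a compound that the series title names as an inhibitor of the enzyme protein disulfide isomerase. In the other 2 (mock) they had received methanol, the solvent, for the same 24 h. Arrays of 1 group are labelled as biological replicates, but no passage or day is named, so p-values measure only the spread between these arrays.

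The transcription factor p53 is held low in resting cells by its own target MDM2 and is released by DNA damage and other stresses. It binds DNA as a tetramer through pairs of a short half-site and switches on genes for arrest, repair, metabolism and death. SPATA18, also called Mieap, is a p53-induced protein of mitochondrial quality control. AEN, the apoptosis-enhancing nuclease, is an exonuclease of the ISG20 family that degrades nucleic acids in dying cells. RRM2B, also called p53R2, is the p53-inducible small subunit of ribonucleotide reductase, which makes deoxynucleotides for DNA repair and for mitochondrial DNA outside S phase. TP53INP1 is a stress protein that promotes p53 phosphorylation with the kinase HIPK2 and binds the LC3 proteins of autophagy. The well-known targets CDKN1A, MDM2, FAS and ZMAT3 had no named probe set in the annotation used and were not analysed here.

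Promoters from RefSeq (GRCh38.p14) were matched for 2 of the 4 genes and are shown because these genes were higher together on the treated arrays. Each runs 5′ to 3′ from 250 bases before the annotated start to 50 after it. The SPATA18 promoter lies at chr4:52051054-52051353 and the AEN promoter at chr15:88621090-88621389, both on the plus strand. Capitals mark the 20 bases that best match a pair of p53 consensus half-sites (10 bases each) with no spacer. The half-site consensus matches its own reverse complement, so both strands were covered.
SPATA18: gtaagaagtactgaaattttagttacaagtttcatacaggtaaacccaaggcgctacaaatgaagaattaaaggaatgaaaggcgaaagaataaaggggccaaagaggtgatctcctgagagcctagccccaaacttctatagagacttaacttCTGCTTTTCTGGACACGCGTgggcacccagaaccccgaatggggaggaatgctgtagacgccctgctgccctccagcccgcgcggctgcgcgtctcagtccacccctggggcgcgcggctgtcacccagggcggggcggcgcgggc
AEN: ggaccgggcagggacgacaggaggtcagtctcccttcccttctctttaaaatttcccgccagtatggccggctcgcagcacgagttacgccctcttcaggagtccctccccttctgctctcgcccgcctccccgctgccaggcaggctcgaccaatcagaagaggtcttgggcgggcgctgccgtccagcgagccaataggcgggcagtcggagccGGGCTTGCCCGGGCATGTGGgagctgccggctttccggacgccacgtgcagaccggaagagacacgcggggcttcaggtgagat

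The AEN promoter held 1 complete p53 consensus half-site, starting 34 bases before the annotated start. The 20 bases from there matched the pair of half-sites at 18 of 20 positions. Among all 35116 promoter windows of that length, 0.649% matched at 18 or more positions, and 6.63% held a complete half-site. In the windows of the other p53 targets tested, described below, 6 of 90 (6.67%) matched at 18 or more positions, and 13.3% held a complete half-site. A gene can have several windows, and these 90 belong to 64 genes. The SPATA18 window held no complete half-site, and its best match was 15 of 20, a score reached by 70.5% of all windows. GC content was 55.7% in the SPATA18 window and 66.0% in the AEN window. The median was 58.7% over all windows, 64% for the genes tested and 67.2% for the other p53 targets tested. A match describes these letters only, and p53 sites often lie in introns or further away.

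The values that follow are log2 expression per probe set, as deposited, so a difference of 1 is a doubling. SPATA18 had 6.71 and 6.63 on the origamicin arrays, against 5.97 and 6.07 on the mock arrays. Both treated arrays lay above both mock arrays, and the smallest difference between arrays of the 2 groups was 0.56. The mean was 6.67 ± 0.06 in origamicin and 6.02 ± 0.07 in mock (SD, n = 2 each). The log2 difference was 0.65 ± 0.08 (SE from the limma fit), a 1.57-fold higher level. This was the largest fold of the 4 genes. In mock cells the probe set lay 2.20 above the filter of 3.82.

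RRM2B had 7.81 and 8.01 on the origamicin arrays, against 7.20 and 7.45 on the mock arrays. The groups did not overlap, although the arrays within a group spread more than for the other 3 genes, by 0.20 in origamicin and 0.25 in mock. RRM2B averaged 7.91 ± 0.14 in origamicin and 7.32 ± 0.17 in mock (SD, n = 2 each). Its log2 difference was 0.59 ± 0.12 SE, or 1.50-fold.

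TP53INP1 had 8.71 and 8.90 on the origamicin arrays, against 8.35 and 8.40 on the mock arrays. Here the treated arrays spread more (0.19) than the mock arrays (0.05), and the groups again did not overlap. The means were 8.81 ± 0.13 in origamicin and 8.38 ± 0.04 in mock (SD, n = 2 each). TP53INP1 differed by 0.43 ± 0.09 SE on the log2 scale, or 1.34-fold.

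AEN had 7.98 and 8.01 on the origamicin arrays, against 7.60 and 7.58 on the mock arrays. It was the tightest of the 4, with 0.02 between the arrays of either group. AEN averaged 7.99 ± 0.02 in origamicin and 7.59 ± 0.02 in mock (SD, n = 2 each). The log2 difference of 0.40 ± 0.06 SE, or 1.32-fold, was the smallest of the 4.

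**Figure D1:**
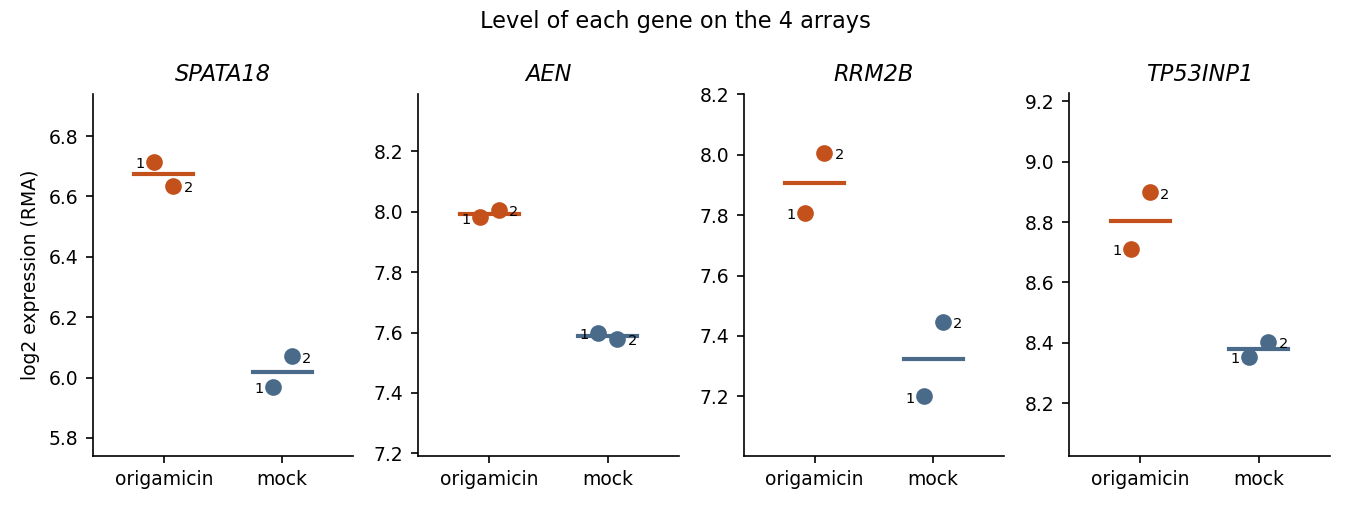
Log2 expression of SPATA18, AEN, RRM2B and TP53INP1 on each array, with points for arrays (replicate number beside each) and bars for group means. Every panel spans the same height on the log2 scale, and in each the 2 origamicin arrays lie above the 2 mock arrays. The spread within groups is smallest for AEN and largest for RRM2B.

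The 4 differences ran from 0.40 to 0.65. Whether they differ from one another was not tested. When settings were varied and arrays left out in turn, SPATA18 lay between 0.60 and 0.71, RRM2B between 0.46 and 0.71, TP53INP1 between 0.33 and 0.52 and AEN between 0.39 and 0.42. The gene-wise SE ranged from 0.06 for AEN to 0.12 for RRM2B, so the fold of RRM2B is known least precisely. Among all 11883 genes tested, 66 were higher by more than SPATA18, 91 by more than RRM2B, 231 by more than TP53INP1 and 276 by more than AEN. All 4 genes had groups that did not overlap, which was so for 48.6% of all genes tested (22.7% with origamicin higher). The choice of the genes fixed this count, and nothing is read from it.

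**Figure D2:**
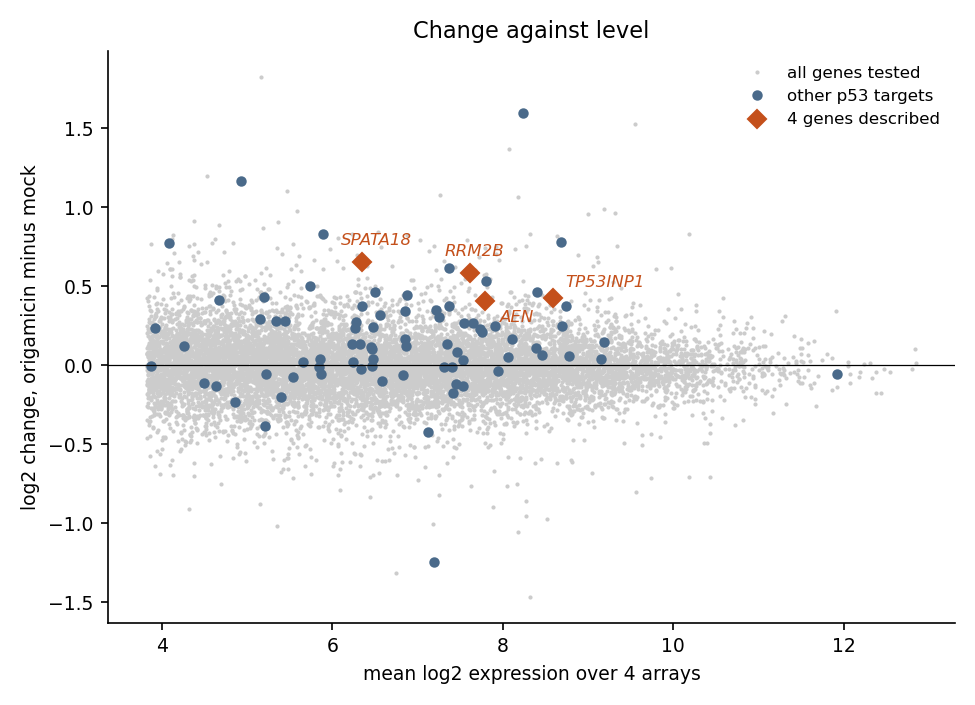
Log2 change (origamicin minus mock, vertical) against mean log2 expression over the 4 arrays (horizontal) for the 11883 genes tested in grey, the 77 other p53 targets in blue and the 4 genes in orange. The 4 genes sit between 0.40 and 0.65. GDF15 at 1.59 and DDIT4 at -1.25 are the highest and lowest blue points.

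A list of 136 other p53 targets was drawn up without the 4 genes, to see what the rest of the p53 programme did. Of these, 77 were tested, 54 were higher (70.1%, where 47.8% of all genes were) and 23 lower, and the median log2 difference was 0.13, against -0.01 over all genes tested. At an unadjusted p under 0.05, 28 of the 77 (36.4%) were higher, where 7.99% of all genes were, and 3 (3.90%) were lower, where 8.42% of all genes were. None of the 77 passed an adjusted p of 0.05 in limma, where 0.00% of all genes did. With an intensity trend in eBayes 4.30% of all genes passed (2.14% higher, 2.16% lower), and of the 77, 12 rose (15.6%) and 2 fell (2.60%). A narrower p53 list was already known to be shifted upward on these arrays, so the direction is not independent evidence. SPATA18 was exceeded by 5 of the 77, RRM2B by 6, TP53INP1 by 12 and AEN by 13.

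Among targets that act in arrest and feedback, 9 of 12 were higher (75%, where 47.8% of all genes were) and the median was 0.22. Of the 12, 7 (58.3%, where 7.99% of all genes were) were higher at an unadjusted p under 0.05, and none was lower (8.42% of all genes). PLK2, a polo-like kinase, had 5.45 and 5.57 in origamicin, against 4.09 and 4.60 in mock, a difference of 1.17 ± 0.18 SE from a dim mock level. SESN2, a sestrin that restrains mTORC1, stood at 0.37 ± 0.08, and PLK3, a related kinase, at 0.32 ± 0.06. PLK2 and SESN2 passed with an intensity trend (limma adjusted p = 0.023 and 0.043), and PLK3 did not (limma adjusted p = 0.078). The 2 that passed are 16.7% of the 12, where 2.14% of all genes rose. The sestrin SESN1 stood at 0.17 ± 0.07 (limma adjusted p = 0.33).

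Among targets that act in cell death, 10 of 15 were higher (66.7%, where 47.8% of all genes were) and the median was 0.13. Of the 15, 6 (40%, where 7.99% of all genes were) were higher at an unadjusted p under 0.05, and none was lower (8.42% of all genes). EDA2R, a member of the TNF receptor family, had 8.99 and 9.14 in origamicin, against 8.29 and 8.30 in mock, a difference of 0.78 ± 0.08 SE. The cytokine gene GDF15 (1.59 ± 0.11) and BAX, which opens the outer mitochondrial membrane (0.46 ± 0.06), were the other 2 with the smallest p. These 3 passed with an intensity trend (limma adjusted p from 0.00096 to 0.0078), which is 20% of the 15, where 2.14% of all genes rose. BBC3 and PMAIP1, which encode the BH3-only proteins PUMA and NOXA, did not stand with them. BBC3 was at 0.13 ± 0.09, its treated and mock arrays meeting at 6.23, and PMAIP1 was at -0.12 ± 0.08 (limma adjusted p = 0.52 and 0.51).

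The remaining 50 targets, in repair, metabolism and signalling, had a median of 0.09, with 35 higher (70%, where 47.8% of all genes were). With an unadjusted p under 0.05, 15 (30.0%, where 7.99% of all genes were) were higher and 3 (6%, where 8.42% were) lower. The 3 genes of smallest p are given next, and the largest rise in this list, 0.83, is not among them. KITLG, the ligand of the KIT receptor, had 7.65 and 7.71 in origamicin, against 7.01 and 7.12 in mock (difference 0.61 ± 0.07 SE). The proteoglycan VCAN stood at 0.53 ± 0.06, and at 0.24 on its other, very dim probe set. DDIT4, an mTORC1 inhibitor, went against the list at -1.25 ± 0.09. Whether p53 caused any of the differences in these lists, higher or lower, was not tested. The other 2 lower genes, chosen after their values were seen, were the glutathione peroxidase GPX1 (-0.42 ± 0.07) and PSTPIP2 (-0.38 ± 0.08).

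**Figure D3:**
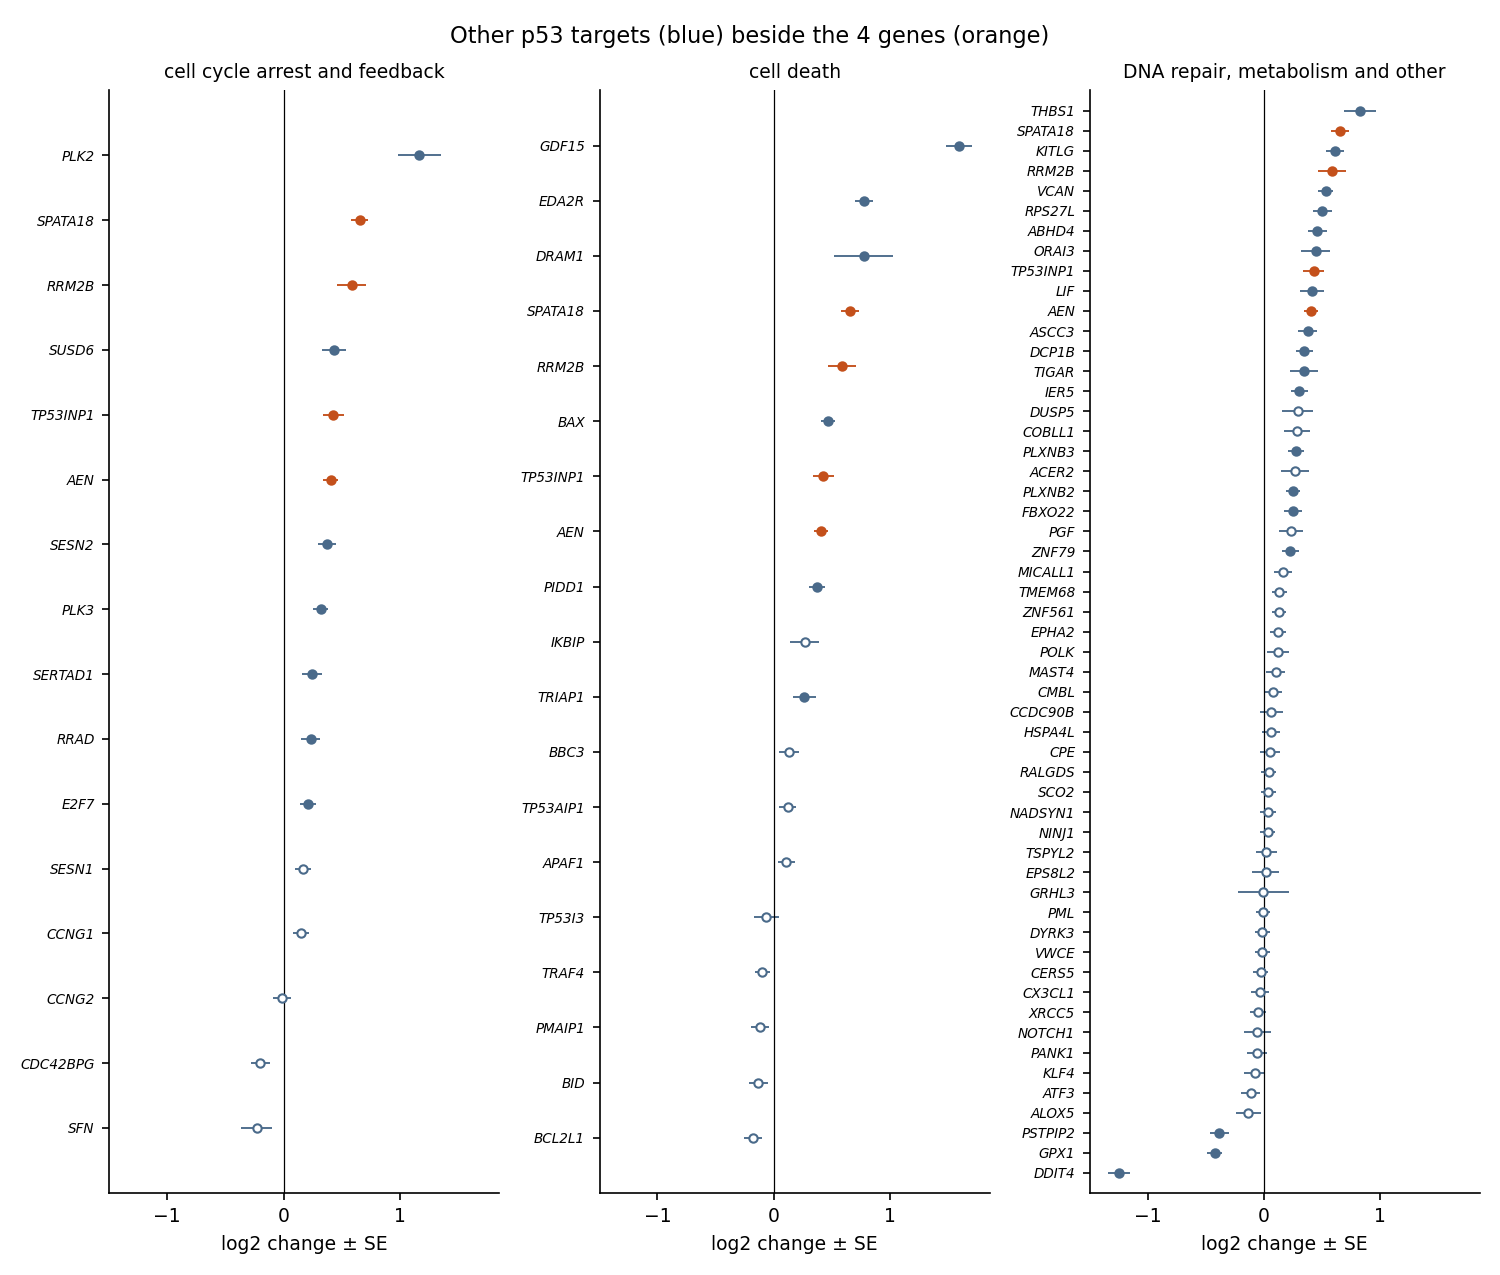
Log2 change (origamicin minus mock) with its SE for the 77 other p53 targets tested, in blue and split by role, with the 4 genes repeated in orange in each panel. Filled blue points have an unadjusted limma p under 0.05. Most filled points lie to the right of 0, and DDIT4, GPX1 and PSTPIP2 are the filled points to its left.

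Upstream, the p53 family and its regulators showed no common shift. Of 31 listed genes 19 were tested, 9 were higher (47.4%, where 47.8% of all genes were) and 10 lower, and the median was -0.00040. At an unadjusted p under 0.05, 3 were higher (15.8%, against 7.99% of all genes) and 1 lower (5.26%, against 8.42%). BRD7, a bromodomain cofactor of p53, stood at -0.25 ± 0.07, the checkpoint kinase CHEK1 at 0.21 ± 0.06 and the p53 relative TP73 at 0.27 ± 0.08 (limma adjusted p = 0.23, 0.25 and 0.25). HIPK2, the kinase that works with TP53INP1, had 10.36 and 10.28 in origamicin, against 10.27 and 10.25 in mock, a difference of 0.06 ± 0.07 SE.

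Each of the 4 genes was then set beside genes of its own process. For RRM2B this was deoxynucleotide supply, in which 14 genes were tested and the median was -0.02. None had an unadjusted p under 0.05, where 16.4% of all genes did. RRM1, the large subunit that RRM2B pairs with, had 9.87 and 9.94 in origamicin, against 9.77 and 9.81 in mock (0.12 ± 0.07). RRM2, the S phase small subunit whose place RRM2B takes, had 9.59 and 9.54 in origamicin, against 9.48 and 9.46 in mock (0.10 ± 0.06, limma adjusted p = 0.51). The kinases DTYMK (-0.18 ± 0.07), DGUOK (-0.19 ± 0.09) and NME4 (-0.17 ± 0.08) had the smallest p.

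For SPATA18 the process was mitochondrial quality control, in which 22 genes were tested and the median was -0.02. There 10 were higher (45.5%, where 47.8% of all genes were) and 12 lower. Among them 3 (13.6%) were higher and 2 (9.09%) lower at an unadjusted p under 0.05, shares near those of all genes (7.99% and 8.42%). BNIP3, a mitophagy receptor, had 10.13 and 10.17 in origamicin, against 10.66 and 10.62 in mock, a difference of -0.49 ± 0.06 SE. The inner membrane protease YME1L1 stood at -0.21 ± 0.07 and the mitophagy kinase PINK1 at 0.22 ± 0.07. BNIP3 and YME1L1 fell with an intensity trend (limma adjusted p = 0.0029 and 0.047), which is 9.09% of the list, where 2.16% of all genes fell.

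For TP53INP1 it was autophagy, in which 24 genes were tested and the median was 0.04. Of these, 17 were higher (70.8%, where 47.8% of all genes were). That share by sign is like the 70.1% of the other p53 targets, whose median was larger, at 0.13. Among the 24 autophagy genes the unadjusted p was under 0.05 for 3, all higher (12.5%). Of all genes, 16.4% had such a p and 7.99% were higher with it. The receptor SQSTM1 had 8.32 and 8.22 in origamicin, against 7.59 and 7.54 in mock (0.70 ± 0.07), and was the 1 gene of the list to pass with an intensity trend (4.17%, where 2.14% of all genes rose). ATG2B, a lipid transfer protein, stood at 0.22 ± 0.07 and ATG16L1, of the LC3 conjugation complex, at 0.19 ± 0.06. TP53INP2, the paralogue of TP53INP1, had 7.81 and 7.76 in origamicin, against 7.81 and 7.83 in mock, a difference of -0.04 ± 0.06 SE (limma adjusted p = 0.82).

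For AEN it was nucleases, in which 18 genes were tested and the median was -0.04. There 6 were higher (33.3%, where 47.8% of all genes were) and 12 lower. At an unadjusted p under 0.05 none was higher and 2 were lower (11.1%, near the 8.42% of all genes), the exonuclease XRN2 (-0.25 ± 0.08) and the replication nuclease DNA2 (-0.17 ± 0.06). ERI1, an RNA exonuclease, stood at 0.15 ± 0.06. ISG20, the member that gives the family its name and the nearest tested gene beyond AEN, had 4.24 and 4.04 in origamicin, against 4.31 and 4.11 in mock, a dim signal with a difference of -0.07 ± 0.11 SE.

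**Figure D4:**
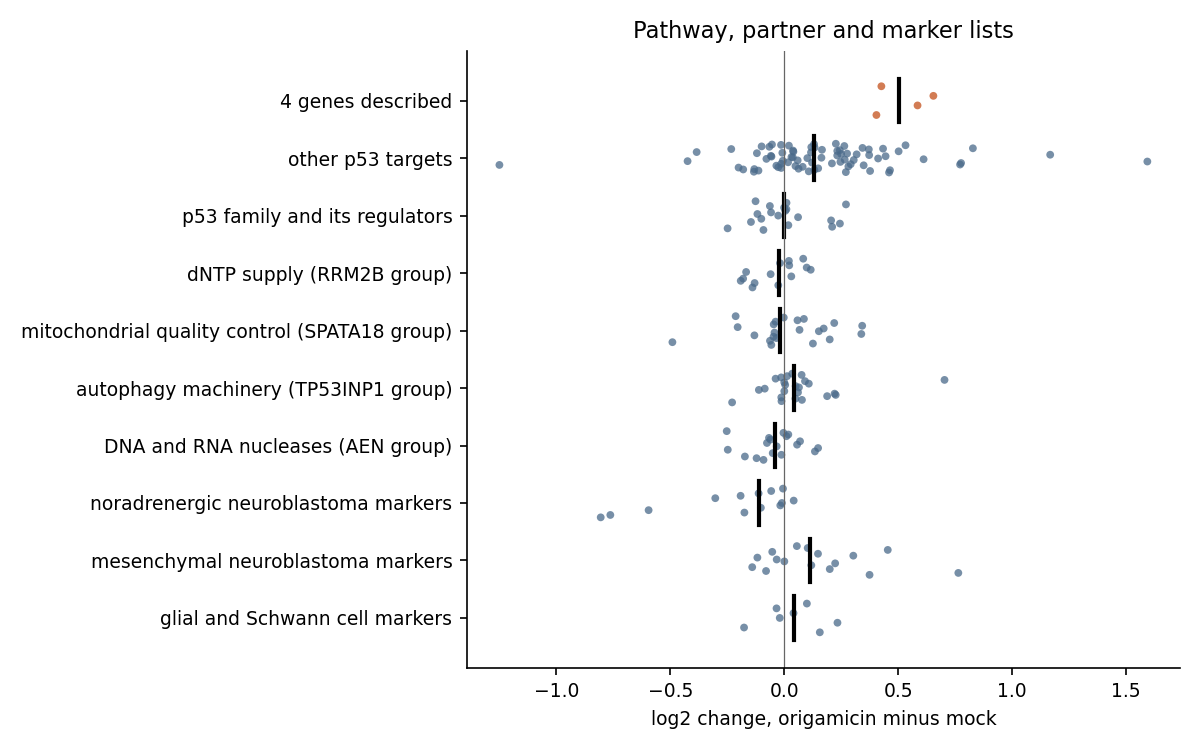
Log2 change (origamicin minus mock) of every tested gene in each list, with a black bar at the list's median. The 4 genes lie at 0.40 to 0.65. The bar of the other p53 targets is at 0.13, and those of the regulators and of the 4 process lists lie between -0.04 and 0.04.

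The nearest tested genes in the RefSeq gene order were set beside each gene. They lay from 3.35 kb (ISG20) to 3144 kb (OCIAD2) away. SPATA18, on chromosome 4, stood between OCIAD2 (-0.03 ± 0.06) and USP46 (-0.11 ± 0.07). OCIAD2 has 4 protein-coding genes between it and SPATA18, and USP46 is 494 kb away, so both say little about the nearby chromosome. AEN, on chromosome 15, stood between DET1 (-0.03 ± 0.08) and ISG20. TP53INP1, on chromosome 8, stood between the cyclin gene CCNE2 (0.15 ± 0.06, limma adjusted p = 0.36) and the microRNA gene MIR3150B (-0.17 ± 0.14). RRM2B, also on chromosome 8, had KLF10 (-0.08 ± 0.06), 410 kb away, on one side. None of the 8 neighbours passed an adjusted p of 0.05 in limma, where 0.00% of all genes did. With an intensity trend none passed either, where 4.30% of all genes did. At such shares 8 genes can show little, and nothing is read from this count.

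On its other side RRM2B had NCALD, a calcium sensor of neurons, which had the largest difference of the 8 neighbours. NCALD had 4.22 and 4.14 in origamicin, against 3.64 and 3.77 in mock, a difference of 0.47 ± 0.08 SE (limma adjusted p = 0.16). Its signal was near the filter of 3.82, and its other probe set, dimmer still, stood at -0.19, so the 2 probe sets disagree. Each neighbour listed can lie several genes away, since genes without a named probe set were passed over.

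**Figure D5:**
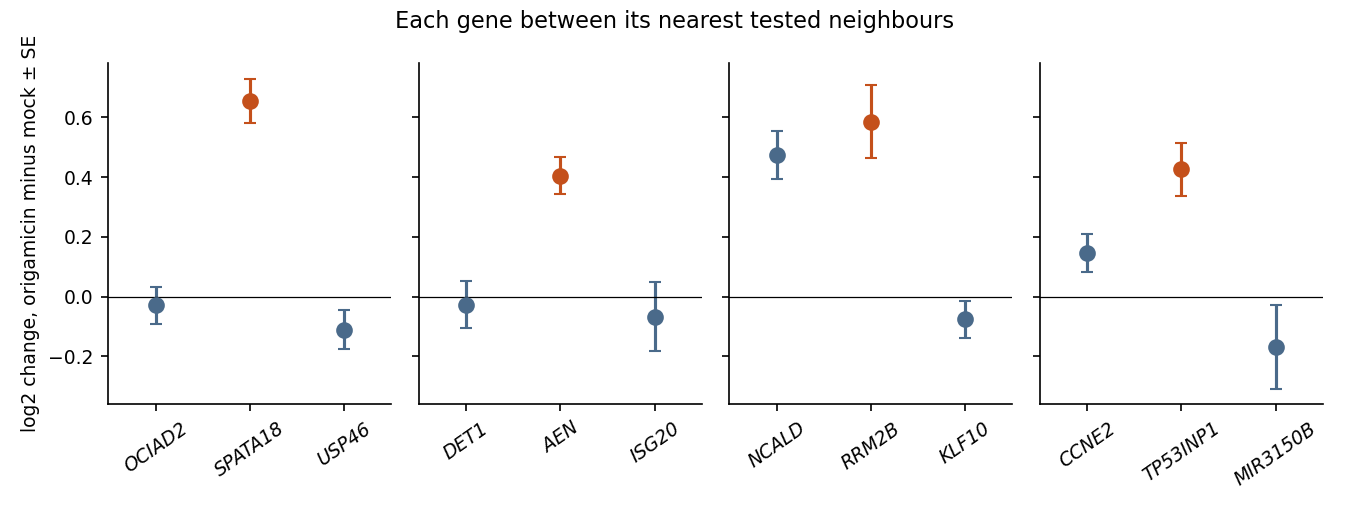
Log2 change (origamicin minus mock) with its SE for each of the 4 genes (orange) and the nearest tested gene on either side (blue), in chromosome order. SPATA18 and AEN stand between neighbours near 0. NCALD, beside RRM2B, stands at 0.47.

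The genes whose profile over the 4 arrays was most like each of the 4 were found by the root mean square difference between centred log2 values. For SPATA18 they were POPDC2 (0.024), LGR5 (0.025) and KCTD7 (0.025). For RRM2B they were GAS6-DT (0.019), KRT33B (0.024) and RACGAP1P1 (0.032). For TP53INP1 they were LACC1 (0.0083), PRADC1 (0.013) and CCDC89 (0.014), and for AEN they were AFAP1L1 (0.012), TMTC1 (0.013) and SCARNA7 (0.016). None of the 4 genes was among the 3 nearest of another. The nearest pair was AEN and TP53INP1, at 0.063, with AEN in place 74 for TP53INP1 and TP53INP1 in place 168 for AEN. With 4 arrays this likeness rests mostly on the size of the group difference and describes these arrays only.

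The labelled cell type was checked against its markers. All 13 tested noradrenergic neuroblastoma markers, of 19 listed, had a signal, with group means from 5.66 to 12.5. Their average level was 9.57 and 9.59 in origamicin, against 9.80 and 9.84 in mock. Of the 13, 12 were lower, led by CHGB (-0.76 ± 0.08), DDC (-0.59 ± 0.06) and CHGA (-0.80 ± 0.09). The 1 higher gene is 7.69% of the list, where 47.8% of all genes were higher. With an intensity trend 4 of the 13 fell (30.8%, where 2.16% of all genes did). Of 22 mesenchymal markers listed, 18 had a named probe set and 16 passed the filter on dim genes, which raises their average. The 16 averaged 6.01 and 5.98 in origamicin, against 5.89 and 5.80 in mock. Of the 16, 11 were higher (68.8%, where 47.8% of all genes were), led by FOSL1 (0.76 ± 0.07), VIM (0.45 ± 0.07) and FN1 (0.37 ± 0.08). With an intensity trend 4 of the 16 rose (25%, where 2.14% of all genes did). The 7 glial markers tested, of 11 listed, averaged 4.80 and 4.84 in origamicin, against 4.75 and 4.80 in mock. Among the 7, 4 were higher (57.1%, where 47.8% of all genes were), with FOXD3 at -0.18 ± 0.12, GFAP at 0.23 ± 0.16 and ERBB3 at 0.16 ± 0.12. The part of these markers in the differences of the 4 genes was not tested. In bulk RNA a change in the number of cells of a type and a change of RNA per cell cannot be told apart.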

How the data were processed

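RNA of 2 origamicin and 2 mock cultures was measured on 1 array each. The values are log2 expression as the authors deposited them. Per the submitters' processing notes the tools were RMA and limma, whose versions are not stated there. No genome build or annotation is given in the sources used here. Array medians lay between 4.37 and 4.42, and no further normalization was applied. The number of arrays limits the precision.

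Of 53617 probe sets, 16098 had exactly 1 gene in the platform annotation and none had several. The others stayed unnamed. Every named identifier matched RefSeq. The brightest probe set was kept per gene, and genes with a mean under the 40th percentile over probe sets (3.82) were left out. The comparison used limma 3.58.1 (R 4.3.3) with lmFit and eBayes, two-sided, with Benjamini-Hochberg adjustment over 11883 genes and a threshold of 0.05. This step was tested on simulated data whose spread did not vary with level. That test therefore cannot show whether the intensity trend suits these arrays. Arrays correlated at 0.994 (origamicin) and 0.995 (mock) within groups and at 0.991 to 0.992 between them, and no pair was a duplicate.

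The members and lists were chosen with earlier results of these data known. Named were the members, the 3 genes of smallest p per list, further genes fixed by name where measured, the neighbours, and the 3 most alike genes. Alternatives were a replicate block, other filters, scalings, probe set rules and eBayes settings, and leaving out each array.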

Additional observations from a re-analysis of the deposited data

How the results depend on the processing

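No gene passed an adjusted p of 0.05 in limma as reported, where 1950 had an unadjusted p under 0.05. With the filter at the 60th percentile 92 genes passed, and with an intensity trend 511 (4.30%). The stricter filter leaves fewer genes to test, and no share was worked out for it. The numbers tested in brackets below are those of the main fit, so nothing is read from the list counts under the stricter filter. Among other p53 targets (77 tested) these settings gave 6 and 14. With the trend 12 of the 77 rose (15.6%, where 2.14% of all genes did) and 2 fell (2.60%, where 2.16% did). By role the 2 settings gave 3 and 3 in cell death (15 tested), all higher with the trend. In repair, metabolism and signalling (50 tested) they gave 3 and 9, with 7 higher and 2 lower among the 9. Arrest and feedback (12 tested) had 2 with the trend, both higher. Mitochondrial quality control (22 tested) had 1 and 2, the 2 lower, and autophagy (24 tested) had 1 and 1, the latter higher. Noradrenergic markers (13 tested) had 3 and 4, the 4 lower, and mesenchymal markers (16 tested) 1 and 4, the 4 higher. The cause was not tested. That count of 1950 fell to between 1261 and 1669 when an array was left out, with 1270 without mock replicate 1 and 1261 without mock replicate 2. Higher p53 targets at an unadjusted p under 0.05 then numbered 19 to 23, against 28 with all arrays, and their median stayed between 0.12 and 0.15. The autophagy median ranged from -0.00039 without mock replicate 1 to 0.051 without mock replicate 2. SPATA18, AEN, RRM2B and TP53INP1 were higher in origamicin under every alternative run, and nothing is read from this. Their treated arrays all lay above their mock arrays, so leaving out an array could not reverse the direction. The filters, probe set rules and eBayes settings left their differences unchanged. Same-numbered arrays did not deviate together (correlation -0.023). With the replicate number as a block 1718 genes had an unadjusted p under 0.05 and none passed the adjusted threshold, and the changes of the 4 genes are equal by construction.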
